A study of Mus musculus with 2 samples.

Results

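The cells described here lay between 0.25π and 0.5π of the cell-cycle position, an angle in radians that the authors deposited for every cell. They were chosen by that position, and thus on measured expression, and were labelled as cells at the G1/S transition, with Mcm3, Mcm6, Ung and Ccne2 as markers. There were 783 of them among 12805 cells, 375 of 5748 in culture 1 and 408 of 7057 in culture 2. The position was computed from the expression of the same cells. Every expression value below is therefore a description of where these cells sit on the cycle, and no test was run on it.

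Both samples were wild-type neurospheres of C57BL/6 mice, grown from the dorsal telencephalon of embryos at embryonic day 14.5, and both carried the same genotype and treatment. Neurospheres are balls of cells that neural stem cells and progenitors form in suspension. The growth factors EGF and bFGF were added at 10 ng/ml each, so the cells report on progenitors expanded in culture and not on the embryonic cortex itself. The labels name the samples as 2 replicates and do not say whether they came from separate litters. They were read as droplet-based 3′ single-cell RNA-seq.

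A cell commits to division when cyclin-dependent kinases inactivate the retinoblastoma pocket proteins and release the E2F transcription factors. E2F targets then supply what replication needs: the MCM helicase loaded at origins, DNA polymerases and clamp, deoxynucleotides and histone chaperones. In cortical progenitors this transition follows a G1 phase whose length is known to change as neurogenesis proceeds.

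Cells of the arc made up 6.52% of culture 1 (95% exact binomial interval 5.90 to 7.19) and 5.78% of culture 2 (5.25 to 6.35), where the intervals cover counting error only. The preceding arc, from 0 to 0.25π, held 670 and 842 cells, and the following arc, from 0.5π to 0.75π, held 709 and 524. Median depth in the arc was 19169 UMIs per cell in culture 1 and 14927 in culture 2, against 19477 and 14637 over all cells. The mean log2 of total UMIs was higher than in the preceding arc by 0.16 in culture 1 and 0.02 in culture 2, and differed from the following arc by -0.04 in both. The expression values had been normalized for depth, and the median difference of all 10666 genes from either neighbour was 0.00 in both cultures. The cultures shared 48 cell barcodes, 6 cells of the arc carried one of these, and 0 barcodes occurred in the arc in both cultures.

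The 3 staging methods whose calls were deposited gave these cells 3 different names. SchwabeCC, which scores stage-specific gene sets and leaves ambiguous cells without a stage, called G1.S in 269 of 375 cells of culture 1 (71.7%, 66.9 to 76.2) and in 296 of 408 cells of culture 2 (72.5%, 67.9 to 76.8). Seurat called S in 350 cells (93.3%, 90.3 to 95.6) and in 383 cells (93.9%, 91.1 to 96.0). The cyclone method called all 783 cells G1.

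The pairs of calls showed how far this went in single cells. There were 540 cells that were G1.S by SchwabeCC and S by Seurat, and all of these were G1 by cyclone. A further 145 cells were S by Seurat without a SchwabeCC stage, 29 were S by both, and 25 were G1 by Seurat and G1.S by SchwabeCC. SchwabeCC called 1 cell of the arc G2 and 0 of 783 cells G2.M, which allows a share of up to 0.383%.

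The stages also set the arc against its neighbours. The G1.S share of the preceding arc was 22.5% in culture 1 and 33.6% in culture 2, and that of the following arc was 64.9% and 63.0%. The Seurat S share went from 14.8% and 19.1% in the preceding arc to 93.3% and 93.9% here and 99.2% and 99.0% in the following arc. Seurat's call thus differed most between the preceding arc and the cells described, while cyclone called 670 of 670 and 841 of 842 cells of the preceding arc G1 as well. In the following arc cyclone called 708 of 709 and 523 of 524 cells G1, so its call did not separate the arc from either neighbour. The paper states that cyclone appears to label cells in S phase poorly.

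**Figure D1:**
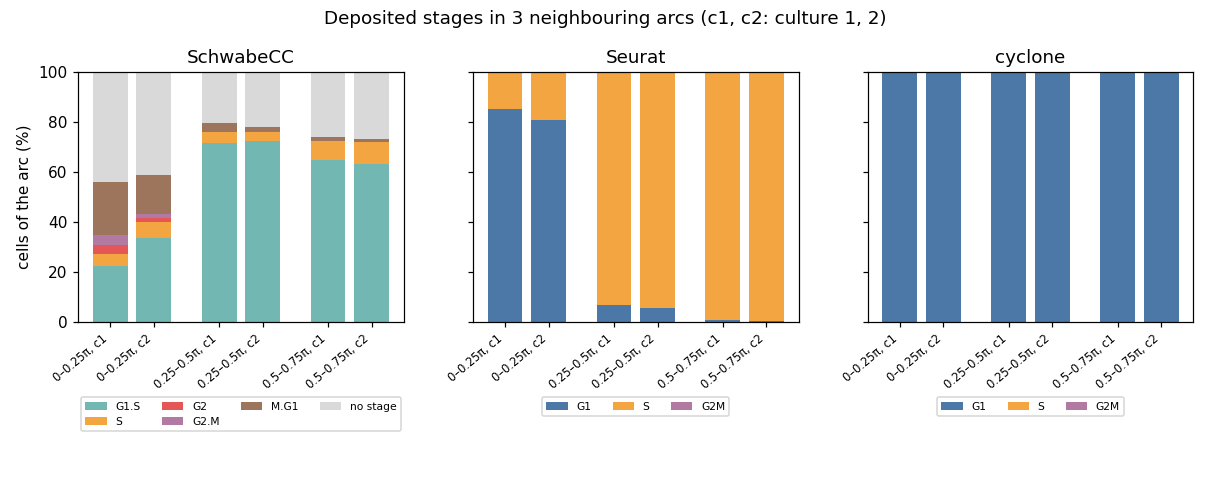
Stages deposited by the authors in the arc from 0.25π to 0.5π and its 2 neighbours, as percent of the cells of each arc, for 3 methods (panels) and 2 cultures (c1, c2). In the middle pair of bars SchwabeCC shows 71.7% and 72.5% G1.S, Seurat 93.3% and 93.9% S, and cyclone 100% G1.

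The letters of E2F sites were read in the promoters of genes whose level differed between the arc and a neighbouring arc, since E2F drives the genes of this transition. Promoter windows of RefSeq (GRCm38.p6) ran from 250 bases before to 50 bases after each gene's start and were given for 8312 genes of the table. The runs searched on both strands were TTTGGCGC, TTTCCCGC, TTTCGCGC and TTTGCCGC, which can overlap each other, and a promoter was counted once. At least 1 run was present in 421 of 8312 promoters (5.06%). It was present in 28 of 78 promoters (35.9%) of the genes that were higher here than in the preceding arc by the size given below, and in 15 of 52 (28.8%) of those lower than in the following arc.

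The MCM helicase genes had the runs in 4 of 5 promoters and the DNA methylation genes in 3 of 3, against 0 of 9 for deoxynucleotide synthesis and 1 of 19 (5.26%) for G2 and mitosis. Histone chaperones had them in 1 of 12 (8.33%), replication fork genes in 8 of 22 (36.4%), and nucleolar and ribosome biogenesis genes in 3 of 8 (37.5%). The promoters of 4 genes are printed below. Mcm6 and Mcm5 show the letters in helicase genes, and Cdca7 and Casp8ap2 show them in genes whose mean was within 0.1 of the following arc. These promoters were picked because they hold matches, and the windows of Rrm2, Dek, Nasp, Hmgb2 and Slbp, genes described below, held 0. The stretches end at the base before the gene start of RefSeq or GENCODE, whichever lies further upstream. They are written 5′ to 3′ on the strand of the gene, with matches to an E2F run on either strand in capitals:
Mcm6 (minus strand, chr1:128359706-128359885): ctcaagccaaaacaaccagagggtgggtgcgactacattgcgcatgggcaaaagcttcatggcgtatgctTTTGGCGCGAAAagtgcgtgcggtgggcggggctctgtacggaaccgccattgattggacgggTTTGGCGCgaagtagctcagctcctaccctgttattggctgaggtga
Mcm5 (plus strand, chr8:75109329-75109508): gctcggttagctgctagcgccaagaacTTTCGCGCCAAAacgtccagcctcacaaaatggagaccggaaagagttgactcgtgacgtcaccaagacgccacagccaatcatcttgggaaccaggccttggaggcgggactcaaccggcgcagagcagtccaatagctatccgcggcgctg
Cdca7 (plus strand, chr2:72476039-72476158): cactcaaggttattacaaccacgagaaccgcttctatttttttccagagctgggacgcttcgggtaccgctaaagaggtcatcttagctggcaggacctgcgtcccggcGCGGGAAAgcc
Casp8ap2 (plus strand, chr4:32615290-32615450): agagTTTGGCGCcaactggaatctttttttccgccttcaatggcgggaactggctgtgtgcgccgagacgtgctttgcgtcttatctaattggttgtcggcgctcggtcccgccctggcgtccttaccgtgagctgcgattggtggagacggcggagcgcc
In Mcm6 the matches began at -110, -106 and -47 from the RefSeq start, and the first pair overlapped on opposite strands. Mcm5 had the same kind of overlapping pair, beginning at -153 and -149. Cdca7 had a match at -71 to -64 and Casp8ap2 at -176 to -169.

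Among the markers of the label, Mcm3 had 2 matches, both after its start (from 19 and from 38), Ung had 0 in its window, and Ccne2 had no entry. A match is a run of letters and was not tested as a binding site. CCAAT, the letters read by the factor NF-Y, were present in 43.4% of all promoters, in 62.8% of those of genes higher here than before, in 78.8% of those lower than after and in 89.5% of G2 and mitosis promoters. The runs TTTGAA and TTTAAA, which stand for the CHR element of mitotic genes, were present in 22.4%, 29.5%, 53.8% and 84.2% of these. The promoters of genes that were higher here thus held the E2F runs more often and the CHR runs less often than those of the mitotic list.

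All 4 markers of the label were higher in the arc than in the preceding arc in both cultures, and all 4 were highest in the following arc. Levels are means over cells of log2(value + 1), where the value is the authors' depth-normalized signal. A value of 1 UMI differed between genes and cultures, so levels were compared only within a gene and a culture.

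Mcm3 (ENSMUSG00000041859, GRCm38 chr1:20802968-20820312), a subunit of the replicative helicase, had a level of 0.56 in the preceding arc, 1.29 in the arc and 1.70 in the following arc of culture 1. Its levels in culture 2 were 0.49, 1.302 and 1.58. The arc thus exceeded the preceding arc by 0.77 ± 0.06 (SD, n = 2 cultures) and differed from the following arc by -0.34 ± 0.09, and on the linear scale its mean was 2.69 and 3.07 times that of the preceding arc.

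Mcm6 (ENSMUSG00000026355, chr1:128331590-128359664), a second subunit of that helicase, had levels of 0.54, 1.19 and 1.54 in culture 1 and of 0.53, 1.03 and 1.48 in culture 2. It exceeded the preceding arc by 0.58 ± 0.11 (SD, n = 2) and differed from the following arc by -0.40 ± 0.08. It lay closer to the following arc than to the preceding one in both cultures, with distances of 0.34 against 0.65 in culture 1 and 0.45 against 0.50 in culture 2.

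Ung (ENSMUSG00000029591, chr5:114130386-114139323), the glycosylase that removes uracil from DNA, had levels of 0.40, 1.07 and 1.29 in culture 1 and of 0.46, 1.32 and 1.45 in culture 2. It was the marker nearest to its highest level: the arc stood at 81.9% and 91.1% of the distance from the lowest to the highest of the 8 arcs. At 0.75π to 1π Ung was at 0.67 and 0.61, while Mcm3 was at 1.45 and 1.42 there.

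Ccne2 (ENSMUSG00000028212, chr4:11191351-11204779), which encodes an E-type cyclin that activates CDK2, had levels of 0.12, 0.47 and 0.72 in culture 1 and of 0.10, 0.36 and 0.72 in culture 2. It stood at 64.4% and 50.2% of its distance, the lowest of the markers. The label thus held in part: its markers were above the preceding arc, but the top of each lay in the next arc, and the cells are called here by their position.

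**Figure D2:**
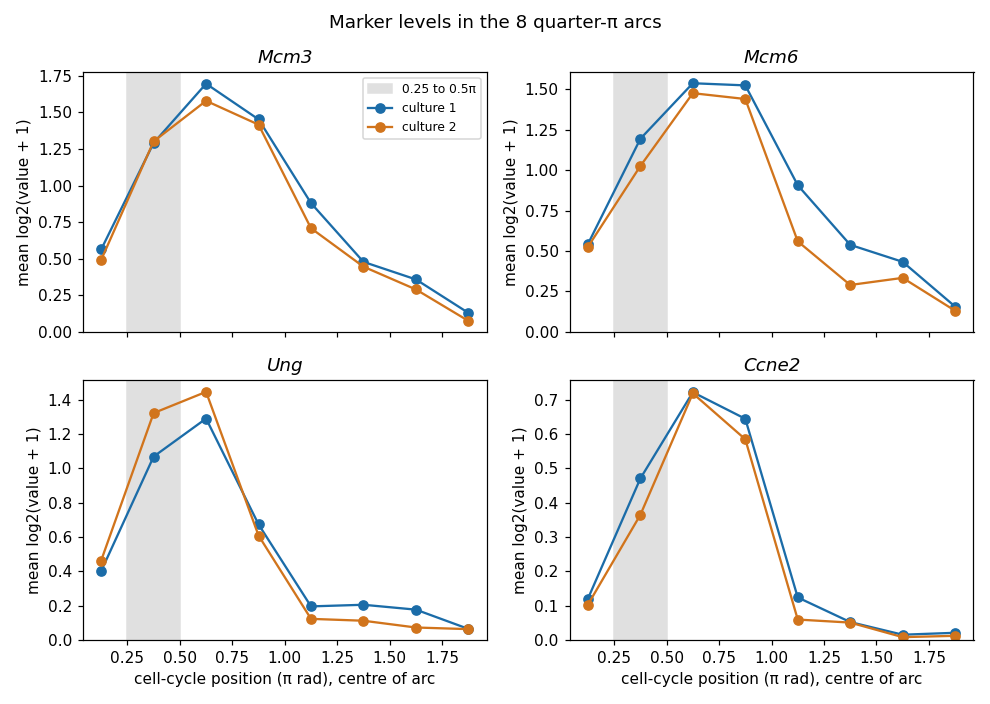
Mean log2(value + 1) of the 4 markers in the 8 quarter-π arcs of the cell-cycle position, 1 line per culture, with the arc from 0.25π to 0.5π shaded. In the shaded arc Mcm3 is at 1.29 and 1.302, between 0.56 and 0.49 before it and 1.70 and 1.58 after it, and all 4 lines are highest in the following arc.

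The limits of the arc divide a continuous position, so the markers were also read beside them. In the 0.025π just below 0.25π (33 and 41 cells) Mcm3 was at 0.998 in culture 1 and 0.90 in culture 2, and in the 0.025π just above (32 and 42 cells) at 0.96 and 0.86. Around 0.5π the levels of Mcm3 were 1.32 and 1.504 just inside (47 and 56 cells) and 1.54 and 1.29 just outside (46 and 52 cells), so the sign of the step there differed between cultures. At the lower limit Ung was at 0.94 and 0.85 outside and 0.93 and 1.22 inside, and Mcm6 at 0.90 and 0.88 outside and 0.89 and 0.53 inside. Ccne2 was at 0.39 and 0.18 outside and 0.40 and 0.12 inside.

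Single cells of the arc varied widely around these means. In culture 1 the middle cells by Mcm3, from the lower to the upper quartile, ran from 0.84 to 1.83 with a median of 1.36, and in culture 2 from 0 to 2.06 with a median of 1.43. The SD over cells was 0.74 and 0.98. Median levels of Mcm3 were 0 in the preceding arc of both cultures.

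A gene was called where its level differed by at least 0.25 with the same sign in both cultures. By this size 92 of 10666 genes (0.863%) were higher than in the preceding arc and 2 (0.0188%) were lower. Without regard to size, 3618 genes were above that arc and 2822 below it in both cultures, and with log2 of mean linear values plus 0.1 the calls were 474 higher and 126 lower. Taken alone, culture 1 gave 117 higher and 3 lower genes and culture 2 gave 108 and 4. Since the position rests on genes of the cycle, these shares are the background for the counts of gene groups below and support nothing by themselves.

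Against the following arc the direction was the opposite, with 67 genes (0.628%) lower here and 0 (0) higher by the same size in both cultures. Culture 1 alone had 3 higher genes and culture 2 alone had 2. There were 48 genes that were both higher than before and lower than after, that is 48 of the 92 and 48 of the 67. No gene was highest of the 8 arcs here by at least 0.1 over both neighbours in both cultures, though 21 were with a pseudocount of 0.1 and 38 with log2 of mean linear values plus 0.1.

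Pclaf, which encodes a factor that binds the replication clamp PCNA, differed most from both neighbours. Its levels were 0.63, 1.95 and 3.11 in culture 1 and 0.83, 2.21 and 3.36 in culture 2, so it exceeded the preceding arc by 1.35 ± 0.05 (SD, n = 2) and differed from the following arc by -1.16 ± 0.01. In linear mean this was 4.25 and 3.60 times the preceding arc. Its highest arc was 0.75π to 1π in both cultures, at 3.61 and 3.97.

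Ranked by the smaller of the differences in the cultures, the next genes against the preceding arc were Hmgb2, Rrm2, Hells, Dek, Mcm3, Tipin and Nasp. Hells, a chromatin remodeller needed for DNA methylation, was at 0.45 and 0.49 before and 1.36 and 1.56 here, and was at 1.56 and 1.80 in the following arc. Unlike Pclaf it had covered most of its distance, 86.2% and 86.6%.

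By the same ranking, the genes lowest against the following arc were Pclaf, Hmgb2, Rrm2, Top2a, Lig1, Smc2, Cdk1 and Birc5. Top2a, the topoisomerase that untangles replicated DNA, was at 0.75 and 0.67 here and at 1.51 and 1.60 in the following arc. Lig1, the ligase that joins Okazaki fragments, was at 0.94 and 1.07 here and at 1.57 and 1.74 there. Birc5, a subunit of the mitotic chromosomal passenger complex, was at 0.30 and 0.32 here against 0.88 and 0.85.

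**Figure D3:**
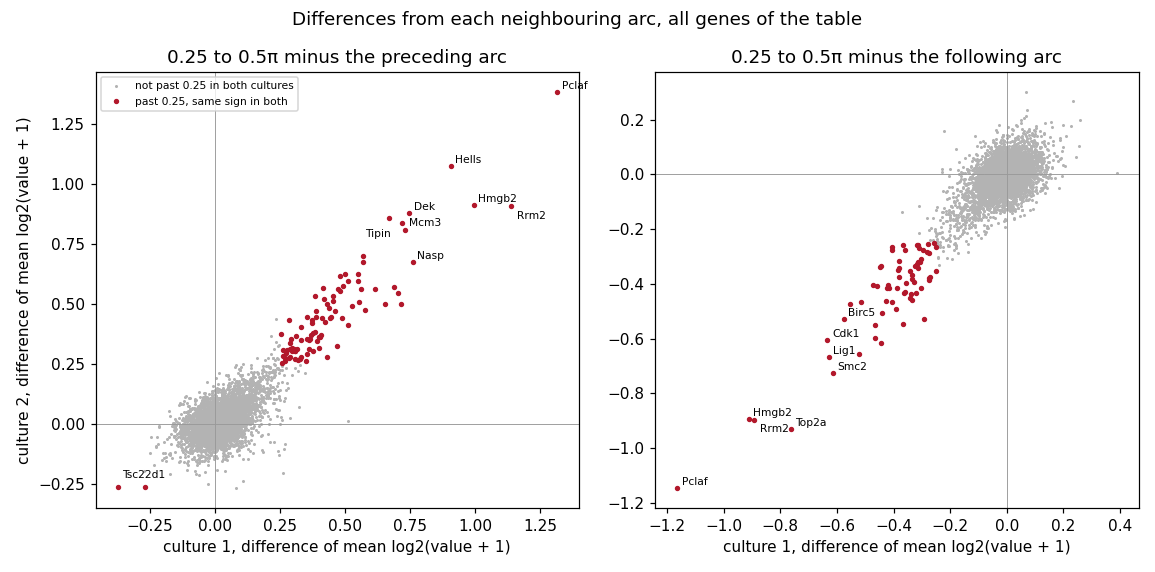
Difference of mean log2(value + 1) between the arc from 0.25π to 0.5π and the preceding (left) and following (right) arc, culture 1 on the x axis and culture 2 on the y axis, 1 point per gene for 10666 genes. Red points pass 0.25 with the same sign in both cultures: 92 higher and 2 lower on the left, 0 higher and 67 lower on the right, with Pclaf farthest out in both.

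Of the 6 MCM genes, 5 were higher than in the preceding arc and all 6 were lower than in the following arc. The median difference was 0.60 in culture 1 and 0.49 in culture 2 before, and -0.33 and -0.36 after. Mcm5 was at 0.37, 0.99 and 1.34 in culture 1 and at 0.36, 0.93 and 1.36 in culture 2. Mcm4 was the one below the size for a call, with differences of 0.33 and 0.247 from the preceding arc and levels of 0.72 and 0.53 here.

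Origin licensing and firing factors were less uniform: 5 of 19 measured were higher than before and 3 were lower than after, with median differences of 0.15 and 0.11 and of -0.10 and -0.12. Cdc6, which loads the helicase at origins, was at 0.13 and 0.09 before, 0.53 and 0.45 here and 0.64 and 0.58 after. Gmnn, which encodes geminin, the inhibitor of licensing, was at 0.86 and 0.91 here and at 1.32 and 1.505 after, and its highest arc was 0.75π to 1π in both cultures. The loader thus stood at 82.5% and 78.4% of its distance and the inhibitor at 50.4% and 51.4%.

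The others of this group that were higher than before were Orc6 by 0.53 and 0.49, Gins2 by 0.47 and 0.56 and Topbp1 by 0.40 and 0.31. The other 5 subunits of the origin recognition complex were not called, with differences of at most 0.17. Orc4 was at 0.46 in all 3 arcs of culture 1 and at 0.36, 0.36 and 0.37 in culture 2. Cdc45, part of the active helicase, differed from the preceding arc by 0.30 and 0.20 and reached the size in culture 1 only.

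At the replication fork 12 of 26 genes were higher than before, 10 were lower than after, and all 26 had the same pair of signs in both cultures. Pcna, the sliding clamp, was at 2.004 and 1.93 here, 0.70 and 0.55 above the preceding arc, and at 2.53 and 2.58 after. Tipin, which with Timeless protects stalled forks, was 0.72 and 0.84 higher than before. Rpa2, a subunit of the single-strand binding protein, was 0.57 and 0.70 higher.

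The catalytic polymerase subunits were not called against the preceding arc, with Pola1 at 0.24 and 0.23, Pold1 at 0.39 and 0.36 and Pole at 0.13 and 0.14 here. All 3 exceeded the preceding arc, by 0.09 and 0.10, 0.22 and 0.19, and 0.09 and 0.09. Pold1 was lower than in the following arc, by 0.28 in each culture. These genes are low in the table, where log2(value + 1) compresses differences. Wdhd1, which links the helicase to polymerase alpha, was at 0.12 and 0.10 before, 0.29 and 0.28 here and 0.29 in both cultures after, below the size for a call.

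Deoxynucleotide synthesis genes stood further from their top than the helicase. Of 10 measured, 6 were higher than before and 6 were lower than after. Of these 10, 9 had levels that spanned at least 0.25 over the 8 arcs in both cultures. The median of the 9 was at 49.6% and 46.4% of its distance, against 72.4% and 66.4% for the 6 MCM genes. Rrm2, the small subunit of ribonucleotide reductase, was at 0.62 and 0.69 before, 1.76 and 1.60 here and 2.65 and 2.49 after. Tk1, thymidine kinase of S phase, was at 0.39 and 0.46 here and at 0.86 and 1.01 after, only 24.0% and 29.4% of its distance.

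The others called in that group included Dut, which destroys dUTP, Rrm1 and Tyms. Dut was at 0.94 and 1.09 before and 1.65 and 1.60 here. Rrm1, the large subunit of ribonucleotide reductase, was 0.36 and 0.35 above the preceding arc. Ung, which acts on the uracil that dUTP puts into DNA, was thus nearer its top than Dut, which was at 56.4% and 45.9%.

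All 3 genes of DNA methylation maintenance were higher than before. Uhrf1, which reads hemimethylated DNA, was at 0.71 and 0.83 here, 0.48 and 0.56 above the preceding arc. Dnmt1, the maintenance methyltransferase, was at 0.87 and 0.94, an excess of 0.42 and 0.52. Uhrf1 and Dnmt1 were lower than in the following arc by the size for a call, and Hells was not.

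Repair genes were mostly below that size. Of 10 genes of mismatch and base excision repair, Ung and the exonuclease gene Exo1 were higher than before and 0 were lower than after. Exo1 was at 0.36 and 0.38 here, 0.29 and 0.28 above the preceding arc. Of 12 genes of homologous recombination only Rad51ap1 was called, at 0.45 and 0.44 against 0.10 and 0.09 before, though all 12 were above the preceding arc in both cultures. These genes are also low in the table, where log2(value + 1) compresses differences. Their summed linear level was 2.08 and 2.42 here against 0.70 and 0.72 before. For the MCM genes the sums were 8.07 and 8.28 against 3.43 and 3.57.

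Histone chaperones were higher in 6 of 12 genes than before and lower in 5 than after. Nasp, which carries linker and core histones, was at 1.36 and 1.07 before, 2.12 and 1.746 here and 2.51 and 2.16 after. Chaf1a, the large subunit of the chromatin assembly factor, was at 0.64 and 0.76 here, 0.45 and 0.53 above the preceding arc. Nap1l1 and the FACT genes Ssrp1 and Supt16 were not called, with Ssrp1 0.246 and 0.33 and Supt16 0.19 and 0.27 above it.

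The regulators upstream of these targets split into classes. E-type cyclin genes and E2f1 were the 3 of 20 genes higher than before. Ccne1 was at 0.32 and 0.37 before, 0.69 and 0.79 here and 0.85 and 0.93 after. E2f1, an activating E2F, was at 0.15 and 0.22 before, 0.44 and 0.66 here and 0.74 and 0.94 after.

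D-type cyclin genes, which act earlier in G1 and respond to growth factors, differed little. Ccnd1 was at 4.01, 4.24 and 4.03 in culture 1 and at 4.25, 4.17 and 4.03 in culture 2, so the sign against the preceding arc differed between cultures. Ccnd2 did the same, 0.27 above that arc in culture 1 and -0.10 from it in culture 2. Both exceeded the following arc in both cultures, Ccnd1 by 0.21 and 0.14 and Ccnd2 by 0.06 and 0.21, below the size for a call. Ccnd3 was at 0.95, 1.02 and 1.17 in culture 1 and at 1.06, 1.09 and 1.21 in culture 2. It was thus above the preceding and below the following arc in both cultures, also below that size.

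The remaining E2F and pocket protein genes were not called, and several were low in the table, where log2(value + 1) compresses differences. E2f2 was at 0.05 and 0.07 before and 0.15 and 0.19 here. E2f3, another activator, was at 0.36 and 0.34 here, 0.20 and 0.12 above the preceding arc. E2f7, an atypical repressor, was at 0.01 and 0.03 before and 0.07 and 0.09 here. E2f8, the other atypical repressor, was at 0.04 and 0.02 before and 0.16 and 0.11 here. Both had their highest arc at 0.75π to 1π. Rb1 was at 0.09 and 0.10 and differed from the preceding arc by -0.01 and -0.02, and Rbl1, which encodes the pocket protein p107, was 0.08 and 0.10 above it.

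None of the 5 measured CDK inhibitor genes and none of the 5 measured p53 targets was called against either neighbour. Cdkn1a, which encodes p21, was at 2.06, 2.14 and 2.22 in culture 1 and at 2.13, 1.86 and 2.07 in culture 2, a difference from the preceding arc of 0.08 and -0.27. The arc was the lowest of all 8 for this gene in culture 2 only. Of the p53 targets 4 of 5 were below the preceding arc in both cultures, Trp53inp1 by -0.08 in each.

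Genes of G2 and mitosis were near the bottom of their range. The median of the 22 measured stood at 4.79% and 4.35% of its distance, and 10 were lower than in the following arc. Only 4 were higher than before, namely Top2a, Hmgb2, Smc2 and Smc4, which act on chromatin and chromosome structure. Mki67 was at 0.15 in both cultures and Ccnb1, the cyclin of mitotic entry, at 0.19 and 0.12.

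Hmgb2, a chromatin protein that bends DNA, was at 1.27 and 1.38 before, 2.27 and 2.29 here and 3.18 and 3.19 after. Smc2 was at 0.60 and 0.53, then 1.09 and 1.11, then 1.71 and 1.83. Among the mitotic kinases, Cdk1 was at 0.27 and 0.22 before and 0.58 and 0.44 here, past the size in culture 1 only, and Aurka and Bub1 were at most 0.05 above the preceding arc.

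Of 11 nucleolar and ribosome biogenesis genes, the box C/D snoRNP genes Nop56 and Nop58 and the nucleolar phosphoprotein gene Nolc1 were higher than before. Against the following arc 0 were lower by the size for a call, where the share over all genes was 0.628%. Without regard to size, 6 were below that arc and 2 above it in both cultures. Nop56 was at 1.45 and 1.33 before, 1.82 and 1.70 here and 2.01 and 1.83 after. Myc, a regulator of these genes, was at 0.52 and 0.44 here and differed from the preceding arc by -0.03 and -0.02.

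**Figure D4:**
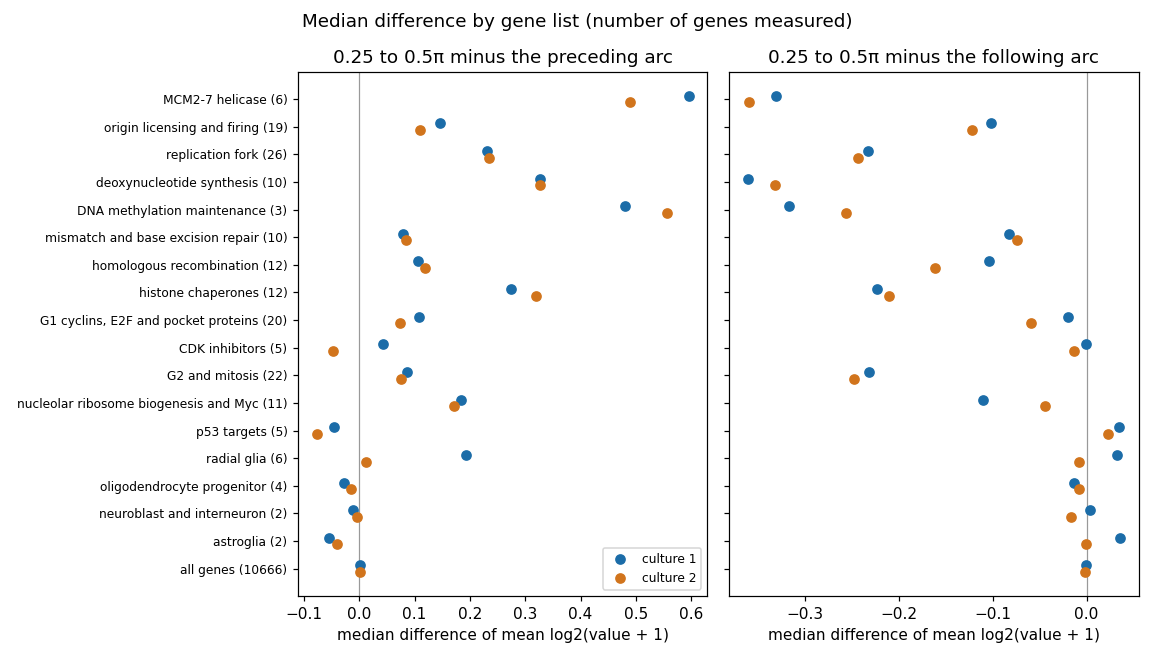
Median over the measured genes of each list of the difference of mean log2(value + 1) between the arc from 0.25π to 0.5π and the preceding (left) and following (right) arc, 1 point per culture. The MCM helicase list is at 0.60 and 0.49 on the left and -0.33 and -0.36 on the right, while all 10666 genes are at 0.00.

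Of the 92 genes, 8 had a mean within 0.1 of that of the following arc in both cultures. They were Baz1b, Casp8ap2, Cdca7, Mest, Nolc1, Slbp, Trim27 and Zmynd19, and were singled out after their values were seen. Casp8ap2, which encodes a protein needed for histone gene expression, was at 0.35, 0.65 and 0.67 in culture 1 and at 0.37, 0.67 and 0.67 in culture 2.

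Slbp, which encodes the protein that binds the stem-loop of histone mRNA, was at 0.52, 0.83 and 0.93 in culture 1 and at 0.44, 0.81 and 0.79 in culture 2. Cdca7, a partner of Hells, was at 0.53, 0.84 and 0.86 and at 0.55, 0.85 and 0.80. Baz1b, a chromatin remodelling subunit, was at 0.69, 1.09 and 1.09 and at 0.71, 1.08 and 1.04.

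Outside the lists, 44 genes were called against the preceding arc, 42 higher and 2 lower. After Pclaf, the largest mean differences were those of Usp1 at 0.69 and 0.57, Dnajc9 at 0.55 and 0.60, Tmpo at 0.50 and 0.63, Fam111a at 0.48 and 0.62 and Ezh2 at 0.55 and 0.51. Usp1 is the deubiquitinase of PCNA, Dnajc9 a histone co-chaperone, Tmpo a nuclear lamina protein and Ezh2 the methyltransferase of Polycomb. Dtl, the adaptor that marks Cdt1 for destruction at the fork, was at 0.79 and 0.99 here and at 0.91 and 0.94 after.

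Of the 2 genes lower than before, Tsc22d1 encodes a leucine-zipper regulator. Tsc22d1 was at 1.80 and 1.51 before, 1.43 and 1.24 here and 1.38 and 1.23 after. It was highest at 1.75π to 2π, where it was at 1.90 and 1.69.

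Genes highest in this arc had small margins. There were 229 genes (2.15%) whose highest of the 8 arcs was this one in both cultures at any margin. The 10 with the largest margin were Elovl6, Xylt1, Rap1b, Tsnax, Tbc1d1, Camk1, Birc6, Cpne8, Afg3l2 and Kcnip3. Elovl6, a fatty acid elongase, was at 1.23, 1.32 and 1.25 in culture 1 and at 1.22, 1.32 and 1.23 in culture 2. None of the 10 is a gene of the cycle lists.

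Genes that were above the following arc were likewise below the size for a call. The largest excesses over the following arc, named after their values were seen, were those of Mt2 at 0.23 and 0.27, Kdm5b at 0.26 and 0.20, Selenos at 0.20 and 0.18 and Olig2 at 0.23 and 0.18. Kdm5b, a histone demethylase of methylated H3K4, was at 0.71 and 0.59 in the preceding arc, 0.48 and 0.42 here and 0.22 and 0.22 in the following arc. It ran opposite to the replication genes, though its difference from the preceding arc, -0.24 and -0.17, was also below that size.

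Levels also changed within the arc. In 4 sub-arcs of 0.0625π, holding 70 to 124 cells of culture 1 and 84 to 121 of culture 2, Pclaf went from 1.53 in the first to 2.34 in the last in culture 1, and the same ends in culture 2 were 1.64 and 2.72. Mcm6 went from 0.83 to 1.37 and from 0.75 to 1.21. Hells changed less, from 1.31 to 1.48 and from 1.39 to 1.69.

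Rrm2 went from 1.32 to 2.06 and from 1.33 to 1.93, and Tipin from 1.41 to 1.98 and from 1.83 to 2.25. Cdc6 was flat over the first pair of sub-arcs, at 0.38 and 0.40 in culture 1 and 0.38 and 0.38 in culture 2, and was at 0.66 and 0.54 in the last. Ccne2 went from 0.43 to 0.54 and from 0.18 to 0.53. Ccnd1 and Ccnd2 differed between the first and the last sub-arc by at most 0.04 in size.

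The Seurat S share of the sub-arcs was 82.9%, 93.9%, 95.2% and 98.0% in culture 1 and 86.9%, 94.0%, 95.8% and 98.3% in culture 2. The SchwabeCC G1.S share was 72.9%, 59.8%, 76.6% and 74.7% in culture 1 and 64.5%, 72.6%, 77.1% and 76.0% in culture 2. Mean log2 of total UMIs was 14.30 in the first and 14.23 in the last sub-arc of culture 1, against 13.93 and 13.83 in culture 2.

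**Figure D5:**
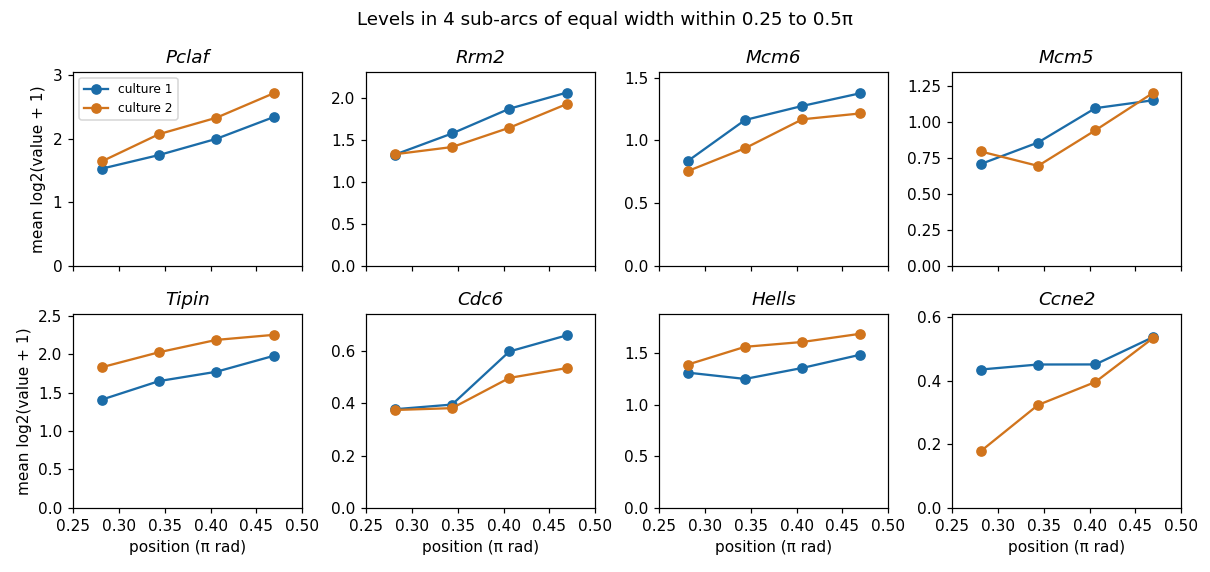
Mean log2(value + 1) of 8 genes in 4 sub-arcs of equal width within 0.25π to 0.5π, 1 line per culture, plotted at the centre of each sub-arc. Pclaf goes from 1.53 to 2.34 (culture 1) and from 1.64 to 2.72 (culture 2), while Hells goes from 1.31 to 1.48 and from 1.39 to 1.69.

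None of the 6 measured radial glia genes was called against either neighbour, nor any of 4 oligodendrocyte progenitor, 2 neuroblast and interneuron and 2 astroglia genes. Of all 10666 genes 0.863% were higher and 0.0188% lower than before, and 0 were higher and 0.628% lower than after. At these shares a lack of calls among so few markers says little. All 4 oligodendrocyte progenitor genes were below the preceding arc in both cultures, and 3 radial glia genes were above it. Of the radial glia genes, Fabp7 was at 6.47 and 6.48, Vim at 4.84 and 4.52 and Nes at 2.35 and 2.28. Hes1 was at 0.62 and 0.63 and Pax6 at 0.18 and 0.19. The median difference of the radial glia genes from the preceding arc was 0.19 in culture 1 and 0.01 in culture 2. The difference in log2 total UMIs was 0.16 and 0.02, and the part of depth in the median difference was not tested.

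Olig2, a factor of ventral and oligodendrocyte lineages, was at 2.59 and 2.51, while Pdgfra and Sox10 of the same list were at 0.08 and 0.05 and at 0.04 and 0.03. Dcx and Gad1, of neuroblasts and interneurons, were at 0.08 and 0.03 and at 0.02 and 0.01. The listed genes of cortical excitatory neurons, microglia, endothelium and mesenchyme are not in the table used here.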

How the data were processed

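The authors deposited 1 expression table and 1 per-cell table for droplet-based 3′ RNA-seq of both cultures. The submitters' processing notes name alevin, Salmon 1.3.0, Seurat 3.2.2 and GRCm38. By the methods, the authors removed outlying cells, doublets by score and mitochondrial genes, and no further filter was applied. The deposited expression values are a linear signal that the authors normalized for depth. In 3639 genes detected in 2% to 20% of cells, the median nonzero value times the cell's relative UMIs ran from 0.497 to 1.26 (5th to 95th percentile) in culture 1, so whole reads were not recovered, no count model was used and cells were not thinned. The authors also deposited each cell's total UMIs, the sum of its estimated counts. The position and stages are the authors' own columns. All per-sample columns were mapped to a culture (0 left over).

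Means of log2(value + 1) over cells were taken per culture and arc with Python 3.11.15, numpy 2.4.6, pandas 2.3.3 and scipy 1.17.1. Calls need a difference of 0.25 with 1 sign in both cultures. The spread is the SD between 2 cultures. Arcs were compared within each culture, and no test was run because the position was computed from the same expression. Cells are not replicates. Named genes were all members of 22 gene lists, the 8 largest called differences per neighbour and direction, and the 10 highest genes. The cells, lists and rules were chosen with earlier results of these data known. The calls were tested on simulated data. Alternatives were other pseudocounts, call sizes, gene and cell filters, rescaling, linear means, narrower arcs and each culture left out. Symbols were found for 10648 of 10666 genes. Gene coordinates are from GENCODE vM21 and promoters from RefSeq. The labels give version 2 of the library kit, where the methods state a later version. Some genes are not reported here.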

Additional observations from a re-analysis of the deposited data

How the results depend on the processing

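The alternatives changed the counts of called genes. Where both directions are given below, more genes were higher than lower against the preceding arc, and the reverse held against the following arc. Linear means raised the smaller direction most among these settings. It went from 2 to 126 genes lower than before and from 0 to 37 genes higher than after. With a difference of 0.5 in place of 0.25, 21 genes were higher and 0 lower than in the preceding arc and 9 were lower than in the following arc. With a pseudocount of 0.1 the counts were 460 higher and 14 lower than before, and 14 higher and 295 lower than after, with 21 highest in the arc. With log2 of mean linear values plus 0.1 they were 474 and 126 before, 37 and 318 after, and 38 highest. Both settings give more weight to low genes. In the central part of each arc (0.5 of its width) 56 genes were higher and 1 lower than before, 3 were highest in the arc, the Seurat S share was 94.8% and the log2 UMI difference from the following arc was -0.0433. In cells between the UMI quartiles 1 gene was higher than after, 2 were highest in the arc, the arc held 6.72% of cells, the G1.S share was 75.6%, the Seurat S share 96.3%, the log2 UMI difference from the following arc -0.0353, and that from the preceding arc turned from 0.09 to -0.00903. The causes were not tested.

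With 1 culture left out, the counts higher than before ran from 108 to 117 and lower from 3 to 4, those after from 2 to 3 higher and from 80 to 90 lower, and those highest in the arc from 10 to 13. These are counts over 1 culture, which need no second sign. The log2 UMI difference from the preceding arc ran from 0.02 to 0.16. Over all alternatives, 60 counts of called genes per list changed by more than 1.5 times and 220 did not, and 19 differences of the 4 markers changed by more than the SD between cultures and 45 did not. None of these marker differences changed sign. No paired analysis was possible because the result comes from no test, and every difference was already taken within a culture. Culture 2 was the shallower, and genes near 0 are limited by depth.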
